A study of Mus musculus with 2 samples.

Results

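Arg1 Clec4n tumour macrophages are C1q-expressing macrophages of 4T1 breast tumours that carry transcripts of Arg1, Clec4n or Bglap and few transcripts of the resident-type genes Mrc1, Cd163, Folr2 and Lyve1. A cell counted as a macrophage when C1qa, C1qb and C1qc together gave at least 3 unique molecular identifiers (UMIs, each 1 captured transcript) and at least 10 per 10000. It also had at most 2 UMIs of Krt8 and Krt18, none of Cd3d, Cd3e and Cd3g, and under 100 per 10000 of S100a8 and S100a9. Within the macrophages, cells with at least 3 UMIs of Arg1, Clec4n and Bglap together and under 3 UMIs of the 4 resident-type genes were members. Members were thus selected on the measured UMIs of these genes. They numbered 1664 of 3319 macrophages and of 28854 cells in all, with 125 members in the AptCD4-LNT library and 1539 in the Untreated library.

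The tumours grew from 4T1, a mouse triple-negative breast cancer line, in BALB/c mice. AptCD4-LNT mice received AptCD4-LNT as doses of 5000000, then 4000000, then 3000000 cells given every 3 days, and Untreated mice received PBS. Tumours were collected on day 9, and each single-cell library pooled 3 of them. With 1 library per group, and single tumours not kept apart, no difference was tested against the spread between mice, and all intervals below are exact 95% intervals that cover counting error only.

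Arg1 encodes arginase, which splits arginine into urea and ornithine and so takes the substrate from nitric oxide synthase. Arginase-expressing macrophages are known from tumours, where they are associated with suppression of T cells and with poorly oxygenated regions. Clec4n encodes the C-type lectin Dectin-2, a receptor for mannose-rich glycans that signals through the Fc receptor gamma chain, and Bglap encodes osteocalcin, a bone matrix protein made by osteoblasts. The resident-type genes Mrc1, Cd163, Folr2 and Lyve1 mark macrophages with scavenging roles around vessels and connective tissue.

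The members fitted a macrophage label. All 10 macrophage markers outside the rule were detected in members of both libraries, at a summed level of 20582 counts per 1000000 UMIs (CPM) in AptCD4-LNT members and 21705 CPM in Untreated members. Against other macrophages, none of the 10 differed by 1.5-fold in AptCD4-LNT members, and 5 were lower and none higher in Untreated members (other macrophages summed to 20328 CPM in AptCD4-LNT and 34341 CPM in Untreated). Summed markers of other types in members were low, at 5.11 and 4.50 CPM for T and NK genes, 9.19 and 7.15 CPM for B cell genes, 21.4 and 18.9 CPM for dendritic genes, 180 and 435 CPM for neutrophil genes, and 126 and 262 CPM for epithelial genes in AptCD4-LNT and Untreated members. Fibroblast genes were higher, at 870 CPM in AptCD4-LNT members and 1566 CPM in Untreated members, and all 10 of them were detected in both. The B cell genes Cd79a, Ms4a1 and Pax5 were at 0 in both, and Cd3d, Cd3e and Cd3g were at 0 by the rule. The neutrophil and epithelial sums hold genes that the rule capped, so selection limited these sums. S100a8 and S100a9 were at 35.7 and 54.1 CPM in AptCD4-LNT members and 99.8 and 142 CPM in Untreated members. Krt8 and Krt18 were at 15.3 and 23.5 CPM in AptCD4-LNT members and 26.3 and 31.6 CPM in Untreated members. The part of fibroblast RNA in the values below was not tested. The libraries held 98968100 and 131295224 UMIs on 8931 and 20040 barcodes, with a median of 8612 and 4640.5 UMIs per barcode for AptCD4-LNT and Untreated. They shared 42 barcodes, of which 1 AptCD4-LNT and 2 Untreated members were part. Members were deeper than other macrophages, at a median of 7461 against 3767 UMIs in the AptCD4-LNT library and 4179 against 2316 UMIs in the Untreated library.

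Members were a small part of the macrophages in AptCD4-LNT tumours and the larger part in Untreated tumours. They made up 125 of 990 macrophages (12.6%, 10.6 to 14.9%) in the AptCD4-LNT library and 1539 of 2329 (66.1%, 64.1 to 68.0%) in the Untreated library. The AptCD4-LNT share was 5.23-fold lower (4.36 to 6.33). Macrophages as a whole took a like part of both libraries, 11.2% of the cells after AptCD4-LNT and 11.6% of the cells without it. Of all cells kept, members were 1.41% (1.18 to 1.68%) in the AptCD4-LNT library and 7.69% (7.33 to 8.07%) in the Untreated library. The difference in the member share was taken up by macrophages below the member-gene minimum. Macrophages with resident-type genes only were 304 (30.7%) in the AptCD4-LNT library and 169 (7.26%) in the Untreated library. Those with neither gene group were 449 (45.4%) and 402 (17.3%), at a median of 5296 UMIs in AptCD4-LNT and 1547.5 UMIs in Untreated. Cells with both gene groups were a similar share of the AptCD4-LNT and Untreated macrophages, at 112 (11.3%, 9.41 to 13.5%) and 219 (9.40%, 8.25 to 10.7%). Because the rule counts UMIs, a shallow cell with the member genes can fall in the group with neither, and AptCD4-LNT macrophages were the deeper ones. After thinning each macrophage to 3000 UMIs, which left out 375 AptCD4-LNT and 950 Untreated macrophages, the member share was 11.7% against 81.0%, a 6.92-fold lower share in AptCD4-LNT. The groups were not left out evenly. In Untreated, 345 of 402 cells with neither gene group and 473 of 1539 members were too shallow, against 166 of 449 and 13 of 125 in AptCD4-LNT. The limit on resident-type genes was set on thinned counts too, which loosens it. The thinned shares thus cover another set of macrophages.

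**Figure D1:**
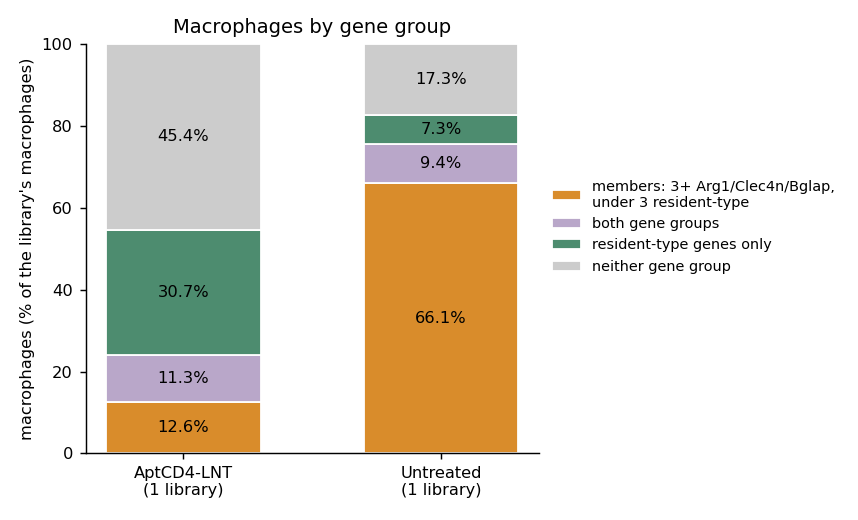
Share of each library's macrophages (y axis, percent) in the 4 groups set by the member genes and the resident-type genes, with AptCD4-LNT on the left and Untreated on the right. Members make up 12.6% of AptCD4-LNT macrophages and 66.1% of Untreated macrophages.

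The edge of the rule cut through a continuous range. Among macrophages with few resident-type UMIs, 36 AptCD4-LNT cells had 3 member-gene UMIs and were members, and 63 had 2 and stayed outside, against 97 and 81 cells in the Untreated library. Hilpda, a lipid droplet gene that the rule did not use, was at 283 CPM in AptCD4-LNT cells just inside and 108 CPM in those just outside, and at 679 and 469 CPM in the Untreated ones. At the other edge, 22 AptCD4-LNT members had 2 resident-type UMIs and 21 cells with 3 were excluded, against 179 and 89 cells in the Untreated library. The chemokine gene Ccl8 was at 153 CPM just inside and 254 CPM just outside that edge in AptCD4-LNT cells, and at 262 and 129 CPM in Untreated cells. These are descriptions of the rule's borders.

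The 3 member genes were carried differently by members of AptCD4-LNT and Untreated tumours. Arg1 (ENSMUSG00000019987) was at 842 CPM (785 to 901) in AptCD4-LNT members and 2175 CPM (2141 to 2208) in Untreated members, 2.58-fold lower. In single cells this was a median of 2 and a highest value of 59 Arg1 UMIs in AptCD4-LNT members, against a median of 7 and a highest value of 86 in Untreated members. Clec4n (ENSMUSG00000023349) was at 309 CPM in AptCD4-LNT members and 970 CPM in Untreated members, 3.14-fold lower. Bglap (ENSMUSG00000074483) gave no UMI in 125 AptCD4-LNT members, which allows a share of up to 2.40% of cells with a UMI, and 2789 UMIs (369 CPM) in Untreated members. These 3 genes chose the cells, so their levels are a description.

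Most Untreated members held Arg1 and Clec4n in the same cell, and most AptCD4-LNT members held only 1 of them. Both genes were seen in 34 of 125 AptCD4-LNT members (27.2%, 19.6 to 35.9%) and in 81.7% (79.7 to 83.6%) of Untreated members. Arg1 alone was seen in 38 AptCD4-LNT members (30.4%) and 114 Untreated members (7.41%). Clec4n alone was seen in 53 AptCD4-LNT members (42.4%) and 73 Untreated members (4.74%). The rule asks for a sum, so a cell low in one gene must be high in the other, and a lower total by itself gives fewer cells with both. All 3 genes were seen together in 36.5% of Untreated members, and Bglap without the others in 2 of them. At 3000 UMIs per cell, Arg1 and Clec4n were both seen in 12.5% of 112 AptCD4-LNT members and 76.1% of 1066 Untreated members. These members were chosen at full depth, so thinning takes more of the UMIs that admitted the deeper AptCD4-LNT cells, and the thinned shares are no check of the gap.

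Outside the macrophages, Arg1 was lower in the AptCD4-LNT library than in the Untreated library. In neutrophils, set by S100a8 and S100a9, Arg1 was at 7.96 CPM in AptCD4-LNT and 97.0 CPM in Untreated. In epithelial cells, set by Krt8 and Krt18, it was at 3.60 and 24.2 CPM, with an Arg1 UMI in 4.01% of AptCD4-LNT and 10.6% of Untreated epithelial cells at a median depth of 17730 and 7540 UMIs. Of members, 57.6% (48.4 to 66.4%) in AptCD4-LNT and 92.1% (90.7 to 93.4%) in Untreated had an Arg1 UMI, a share that the rule itself raises. Clec4n was not lower in AptCD4-LNT neutrophils, at 138 CPM in AptCD4-LNT and 126 CPM in Untreated, close to the 156 CPM of the other AptCD4-LNT macrophages. Bglap was seen in none of 3712 AptCD4-LNT epithelial cells and in 0.719% of Untreated epithelial cells, against 42.6% (40.1 to 45.1%) of Untreated members. The part of free RNA in these low levels was not tested.

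With the member genes counted at equal depth, the whole range of their content was displaced in AptCD4-LNT macrophages low in resident-type genes. The limit on resident-type genes was applied at full depth, where a deeper cell is left out more readily, so the cells were not selected at equal depth. Of 395 AptCD4-LNT macrophages low in resident-type genes and thinned to 3000 UMIs, 232 (58.7%) had no UMI of the 3 genes, 111 (28.1%) had 1 to 2, 30 (7.59%) had 3 to 5, 12 (3.04%) had 6 to 11 and 10 (2.53%) had 12 or more. Of 1123 such Untreated macrophages, 33 (2.94%) had no UMI, 93 (8.28%) had 1 to 2, 203 (18.1%) had 3 to 5, 392 (34.9%) had 6 to 11 and 402 (35.8%) had 12 or more. The most frequent class was thus the lowest in the AptCD4-LNT library and the highest in the Untreated library. Bglap counts in this content and gave 1 UMI in the whole AptCD4-LNT library against 4488 in the Untreated library. Its part in the classes was not tested. With Bglap left out of the rule at full depth, members were 12.6% of AptCD4-LNT and 64.7% of Untreated macrophages.

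**Figure D2:**
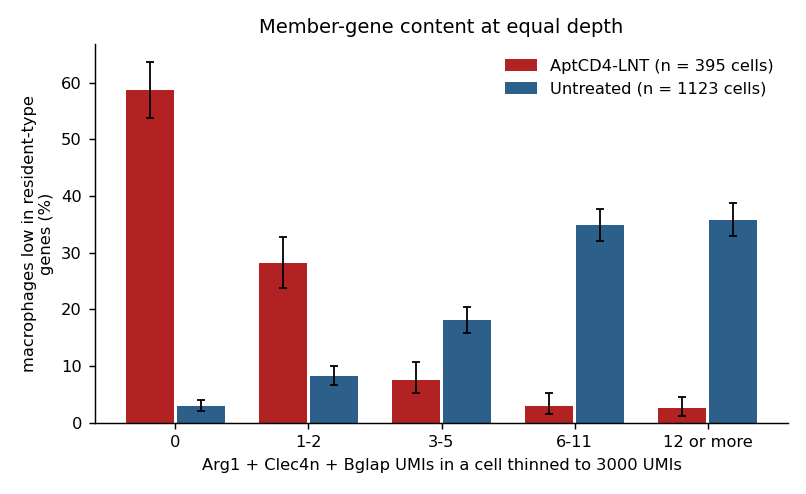
Share of macrophages low in resident-type genes (y axis, percent) by their UMIs of Arg1, Clec4n and Bglap at 3000 UMIs per cell (x axis), for 395 AptCD4-LNT and 1123 Untreated cells. AptCD4-LNT cells pile up at 0 UMIs (58.7%), and Untreated cells at 6 or more. Error bars are exact 95% binomial intervals of counting error.

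Several genes that the rule did not use followed this content in both libraries. The 5 genes with the largest climb from the lowest to the highest class in both were Fabp5, which encodes a fatty acid carrier, Mmp12, which encodes macrophage elastase, Hmox1, which encodes the haem-degrading enzyme heme oxygenase, Bnip3, which encodes a mitophagy receptor induced by low oxygen, and Prelid2. Mmp12 ran at 2.87, 42.0, 55.6, 222 and 1300 CPM over the 5 classes of AptCD4-LNT cells and at 131, 570, 765, 1531 and 3005 CPM over those of Untreated cells. Hmox1 was at 313 CPM in the lowest and 5700 CPM in the highest AptCD4-LNT class, and at 192 and 1250 CPM in the Untreated ones. Bnip3 was at 106 and 600 CPM in the lowest and highest AptCD4-LNT classes, and at 60.6 and 417 CPM in the Untreated ones. Some of these climbs rest on few UMIs. Bnip3 had 18 UMIs in the highest AptCD4-LNT class and 6 in the lowest Untreated class, and Prelid2 had 4 and 2. Fabp5 had 6 UMIs in the lowest Untreated class and Mmp12 had 2 in the lowest AptCD4-LNT class. Spp1, which encodes osteopontin, was at 2674 CPM in the lowest and 5100 CPM in the highest class of AptCD4-LNT cells, and at 2869 and 11192 CPM in those of Untreated cells. H2-Aa and Cxcl9 ran the other way. The MHC class II gene H2-Aa was at 3568 CPM in the lowest and 667 CPM in the highest class of AptCD4-LNT cells, and at 3697 and 2344 CPM in those of Untreated cells. Cxcl9, which encodes an interferon-induced attractant of T cells, was at 168 CPM in the lowest AptCD4-LNT class and without a UMI in the 10 cells of the highest, and at 263 and 73.8 CPM in the Untreated ones. The 8 MHC class II genes summed to 14980 CPM in the lowest and 3200 CPM in the highest class of AptCD4-LNT cells, and to 16121 and 11621 CPM in those of Untreated cells. MHC class I genes did not follow them, with sums of 9559 and 9933 CPM in the lowest and highest AptCD4-LNT classes and 9747 and 11556 CPM in the Untreated ones. The chemokine genes summed to 4649 and 3567 CPM in the lowest and highest AptCD4-LNT classes, and to 6232 and 7506 CPM in the Untreated ones. Fibroblast genes moved with the content in the opposite direction, at a summed 1547 CPM in the lowest and 200 CPM in the highest class of AptCD4-LNT cells, and at 8424 and 104 CPM in those of Untreated cells, and their part in these gradients was not tested.

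**Figure D3:**
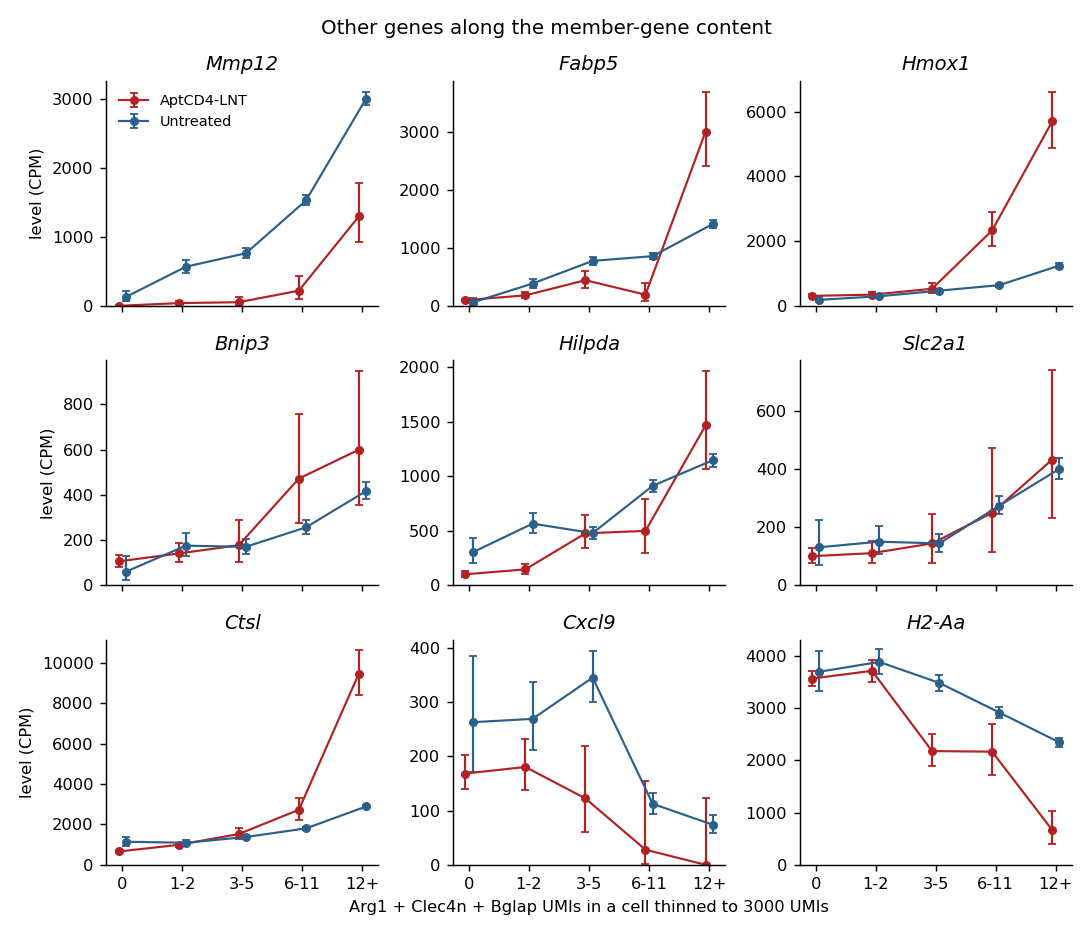
Level (y axis, CPM) of 9 genes in macrophages low in resident-type genes, by their UMIs of Arg1, Clec4n and Bglap at 3000 UMIs per cell (x axis), in both libraries. Mmp12, Hmox1 and Bnip3 climb and H2-Aa is lowest in the highest class in both; the highest AptCD4-LNT class has 10 cells. Error bars are exact 95% Poisson intervals of counting error.

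Set against the other macrophages of the same library, members held more transcript of genes induced by low oxygen and of glycolysis. The other macrophages included the cells with both gene groups, 112 of 865 in AptCD4-LNT and 219 of 790 in Untreated. The make-up of that pool thus differed between the libraries. Of 10419 genes with at least 20 UMIs in the AptCD4-LNT comparison, 21.4% differed by at least 1.5-fold (6.31% higher and 15.1% lower in members), and of 11439 in the Untreated comparison 17.6% did (6.35% higher and 11.3% lower). Of 20 hypoxia and glycolysis genes, 8 were higher by that fold and 1 lower in AptCD4-LNT members, with a median log2 ratio of 0.46 beside -0.05 over all genes, and 10 were higher and 0 lower in Untreated members, with a median of 0.58 beside -0.07. Hilpda, which encodes a lipid droplet protein that blocks fat breakdown under low oxygen, was at 405 CPM in members and 113 CPM in other macrophages of the AptCD4-LNT library (log2 ratio 1.85, 1.65 to 2.04). In the Untreated library it was at 901 and 565 CPM (0.68, 0.60 to 0.76). Among the other macrophages, cells with both gene groups held Hilpda at 267 CPM in AptCD4-LNT and 820 CPM in Untreated. With neither gene group it was at 88.7 and 320 CPM, and with resident-type genes only at 54.0 and 56.7 CPM. Neutrophils held more Hilpda than members, at 1543 CPM in AptCD4-LNT and 2153 CPM in Untreated, so it was not particular to members. Egln3, which encodes an oxygen-sensing prolyl hydroxylase, was at 46.0 CPM in members and 15.3 CPM in other macrophages of the AptCD4-LNT library, and at 79.8 and 36.6 CPM in the Untreated library. Vegfa, the vessel growth factor gene, was at 298 CPM in members and 142 CPM in other macrophages of the AptCD4-LNT library, and at 290 and 202 CPM in the Untreated library. The exception was Hmox1, at 1044 CPM in members and 1649 CPM in other macrophages of the AptCD4-LNT library. Of the glycolysis enzymes, Gapdh was at 1683 and 1215 CPM in AptCD4-LNT members and other macrophages, and at 2475 and 1500 CPM in Untreated ones. Against only those macrophages that held neither gene group, 8 of these 20 genes were higher in AptCD4-LNT members and 14 in Untreated members, and none was lower. In that comparison 16.2% of all genes differed in the AptCD4-LNT library (6.25% higher, 9.99% lower) and 31.8% in the Untreated library (13.1% higher, 18.7% lower).

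The promoters of 4 of these genes, Bnip3, Slc2a1, Ero1a and Hilpda, which are 4 of the 12 named as higher in members of both libraries, are shown because they carry the core of the hypoxia response element, ACGTG on either strand (CACGT when read on the other), the sequence that hypoxia-inducible factors bind. Slc2a1 encodes the glucose transporter GLUT1 and Ero1a an oxidase that forms disulfide bonds in the endoplasmic reticulum. The windows run from 250 bases before to 50 bases after the start of the gene (RefSeq, GRCm38.p6), 5′ to 3′ on the gene's strand, with the matched letters in capitals. For Hilpda the second of its listed starts is shown, since the window of the first held no match.
Bnip3, chr7:138909457-138909756, minus strand: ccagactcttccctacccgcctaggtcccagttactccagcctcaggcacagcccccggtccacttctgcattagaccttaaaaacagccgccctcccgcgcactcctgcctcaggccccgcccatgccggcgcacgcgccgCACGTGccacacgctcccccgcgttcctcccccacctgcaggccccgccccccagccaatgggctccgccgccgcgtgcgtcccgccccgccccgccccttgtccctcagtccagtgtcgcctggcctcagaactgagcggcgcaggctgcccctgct
Slc2a1, chr4:119108495-119108794, plus strand: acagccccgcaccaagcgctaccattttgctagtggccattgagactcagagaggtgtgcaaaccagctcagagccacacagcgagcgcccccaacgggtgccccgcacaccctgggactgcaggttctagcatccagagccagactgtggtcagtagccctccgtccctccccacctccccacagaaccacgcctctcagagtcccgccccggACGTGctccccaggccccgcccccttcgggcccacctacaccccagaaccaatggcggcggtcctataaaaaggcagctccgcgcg
Ero1a, chr14:45318523-45318822, minus strand: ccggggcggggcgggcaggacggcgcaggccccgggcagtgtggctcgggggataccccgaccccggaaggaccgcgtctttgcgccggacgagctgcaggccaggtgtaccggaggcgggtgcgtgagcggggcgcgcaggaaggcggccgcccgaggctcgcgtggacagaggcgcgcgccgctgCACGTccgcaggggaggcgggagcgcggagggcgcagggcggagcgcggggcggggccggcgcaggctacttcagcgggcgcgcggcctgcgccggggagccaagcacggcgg
Hilpda, chr6:29272376-29272675, plus strand: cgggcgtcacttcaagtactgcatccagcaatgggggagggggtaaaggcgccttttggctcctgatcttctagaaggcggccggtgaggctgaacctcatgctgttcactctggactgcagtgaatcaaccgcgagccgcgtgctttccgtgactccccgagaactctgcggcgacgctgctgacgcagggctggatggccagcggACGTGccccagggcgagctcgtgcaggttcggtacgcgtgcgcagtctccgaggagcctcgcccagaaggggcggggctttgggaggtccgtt
In Bnip3 the matches on both strands overlap in CACGTG. Of the 20 hypoxia and glycolysis genes, 18 had a promoter window in the table, and 14 of these (77.8%) held a match, beside 5886 of all 27025 genes (21.8%). Pfkl, Eno1, Pdk1 and Adm held none. A match describes letters in this window and shows no binding.

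Levels of these 4 genes in members and other macrophages were 203 and 125 CPM for Bnip3, 147 and 97.2 CPM for Slc2a1, and 163 and 107 CPM for Ero1a in the AptCD4-LNT library. In the Untreated library they were 286 and 160 CPM for Bnip3, 298 and 158 CPM for Slc2a1, and 285 and 158 CPM for Ero1a. The other genes named as higher in members of both libraries were Mmp12, AA467197, Slc7a11, Il1a, Nt5e, Malt1, Prdx6 and Pcnx. Mmp12 was at 108 CPM in members and 24.0 CPM in other macrophages of the AptCD4-LNT library (log2 ratio 2.18, 1.78 to 2.58), and at 1913 and 1029 CPM in the Untreated library (0.89, 0.84 to 0.95). Slc7a11, the cystine importer gene of glutathione synthesis, was 1.93-fold higher in AptCD4-LNT members and 1.75-fold higher in Untreated members than in other macrophages. Nt5e, which encodes the adenosine-forming surface enzyme CD73, was 1.81-fold and 1.64-fold higher, and the cytokine gene Il1a 1.80-fold and 1.70-fold higher. Malt1, a signalling gene downstream of Dectin-2, was 1.62-fold and 1.66-fold higher. The ratios of Il1a, Malt1 and Prdx6 over other AptCD4-LNT macrophages rested on the setting, as they turned to -0.04, -0.02 and -0.0026 on the log2 scale under 1 alternative each.

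**Figure D4:**
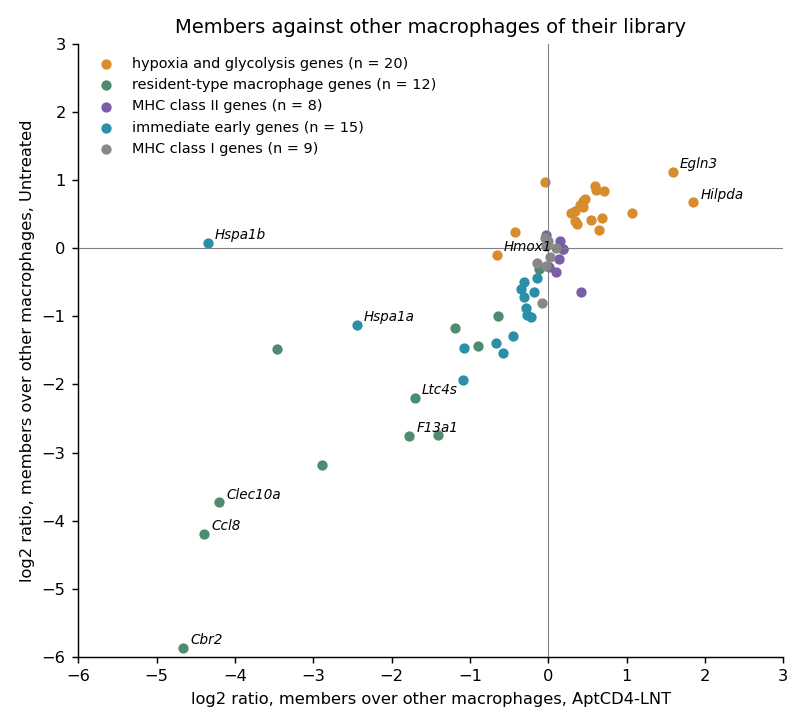
Log2 ratio of members over other macrophages for the genes of the described lists, in AptCD4-LNT (x axis) and Untreated (y axis). Hypoxia and glycolysis genes lie mostly above 0 on both axes, with medians of 0.46 and 0.58, and resident-type genes below 0, with medians of -1.74 and -2.19.

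Members were also lower in resident-type genes other than the 4 of the rule. Outside those 4 genes the list keeps Ccl8, Cbr2, Gas6, Clec10a and others, and of its 13 measured genes 12 were lower in AptCD4-LNT members (median log2 ratio -1.74) and 11 in Untreated members (-2.19). Beside them, 15.1% of all genes were lower in AptCD4-LNT members and 11.3% in Untreated members. The cells were selected on 4 genes of this list, so these counts are a description. Ccl8, a monocyte attractant, was at 56.2 CPM in members and 1185 CPM in other macrophages of the AptCD4-LNT library, and at 114 and 2094 CPM in the Untreated library. Gas6, the ligand of receptors for dead-cell uptake, was 7.39-fold and 9.06-fold lower in AptCD4-LNT and Untreated members. Ccl7 was 4.20-fold and 10.4-fold lower, and Fcgrt, the neonatal Fc receptor gene, 5.16-fold and 5.04-fold lower. Against only macrophages with neither gene group, Ccl8 was still lower, at a log2 ratio of -1.38 in AptCD4-LNT members and -2.39 in Untreated members, while F13a1 turned to 0.68 in AptCD4-LNT members.

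Few arginine and polyamine genes other than the selected Arg1 differed in members, and Slc7a2 and Nos2 were higher in both libraries. Apart from Arg1, 14 enzymes and transporters of arginine and polyamines were measured, of which 2 were higher and 1 lower in AptCD4-LNT members and 3 were higher and 0 lower in Untreated members than in other macrophages. Over all genes, 6.31% were higher and 15.1% lower in AptCD4-LNT members, and 6.35% and 11.3% in Untreated members. Slc7a2, the arginine transporter of macrophages, was at 39.8 CPM in members and 12.4 CPM in other macrophages of the AptCD4-LNT library, and at 94.3 and 48.8 CPM in the Untreated library. Nos2, which encodes the inducible nitric oxide synthase that competes for arginine, was at 28.6 and 12.2 CPM in AptCD4-LNT members and other macrophages, and at 114 and 66.0 CPM in Untreated ones. Ass1, which rebuilds arginine from citrulline, was at 53.1 and 39.7 CPM in AptCD4-LNT members and other macrophages and at 170 and 63.2 CPM in Untreated ones. The polyamine enzyme genes Odc1, Srm and Sms each differed from other macrophages by less than 1.5-fold in both libraries.

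Of the C-type lectin genes beside Clec4n, 14 receptors and signalling partners were measured, and 3 were higher in AptCD4-LNT members, against 3 higher and 2 lower in Untreated members. The shares over all genes were 6.31% higher and 15.1% lower in AptCD4-LNT members, and 6.35% and 11.3% in Untreated members. Clec7a, which encodes the glucan receptor Dectin-1, was at 198 CPM in members and 132 CPM in other macrophages of the AptCD4-LNT library, and at 664 and 369 CPM in the Untreated library. Clec4a1 and Clec4a3, of the same gene cluster, were lower in Untreated members, at 15.5 against 84.7 CPM for Clec4a1 and 42.0 against 129 CPM for Clec4a3. The shared signalling chain Fcer1g was at 2444 and 2236 CPM in AptCD4-LNT members and other macrophages and at 2307 and 2352 CPM in Untreated ones.

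For the groups that follow, the shares over all genes were 6.31% higher and 15.1% lower in AptCD4-LNT members. In Untreated members they were 6.35% higher and 11.3% lower. Of 14 matrix remodelling genes, 4 were higher and 2 lower in AptCD4-LNT members, and 3 were higher and 2 lower in Untreated members. The matrix medians of 0.30 and 0.23 turned to -0.20 and -0.21 for members without any resident-type UMI, so no direction is given. Ctsk, a collagen-degrading cathepsin gene, was at 84.8 CPM in members and 12.6 CPM in other macrophages of the AptCD4-LNT library, and at 24.8 and 5.74 CPM in the Untreated library. Ctsk is also an osteoclast marker, and of those markers 2 of 6 were higher in AptCD4-LNT members and 3 of 7 in Untreated members, with none lower; their part in the matrix values was not tested. Of 15 immediate early genes, 5 were lower and 0 higher in AptCD4-LNT members, and 12 were lower and 0 higher in Untreated members (medians -0.34 and -0.98). Dusp1, a stress-induced phosphatase gene, was at 859 and 1827 CPM in AptCD4-LNT members and other macrophages, and at 445 and 1693 CPM in Untreated ones. Chemokine genes were lower in 5 of 13 cases in each library, with 2 higher in AptCD4-LNT members. Ccl2, the main monocyte attractant, was at 436 and 638 CPM in AptCD4-LNT members and other macrophages, and at 167 and 807 CPM in Untreated ones. The ferritin gene Fth1 was at 31195 and 23448 CPM in AptCD4-LNT members and other macrophages, and at 38468 and 23868 CPM in Untreated ones. MHC class II genes showed no 1.5-fold difference in AptCD4-LNT members (0 of 8) and 1 of 8 lower in Untreated members, and MHC class I genes 0 of 9 and 1 of 9 lower. The class II median of 0.14 in AptCD4-LNT members rested on the setting. It turned to -0.47 with at least 5 member-gene UMIs and to -0.60 after thinning. The interferon response list had 4 of 16 genes lower in AptCD4-LNT members, and 2 higher and 1 lower in Untreated members. Fibroblast markers were lower in 10 of 10 cases in AptCD4-LNT members, and 3 were higher and 1 lower in Untreated members, where their median of 0.34 turned to -1.84 after thinning, and their part in the group values was not tested.

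Members were not alike among themselves. Within each library, members with at least 3 Arg1 UMIs (59 in AptCD4-LNT, 1207 in Untreated) were set against members without Arg1 (53 and 121), which the rule admits through Clec4n or Bglap. Of 5575 genes in AptCD4-LNT members, 29.3% differed by at least 1.5-fold (12.7% higher and 16.6% lower in the Arg1 cells), and of 10398 genes in Untreated members 30.4% did (16.3% higher and 14.2% lower). All 18 hypoxia and glycolysis genes measured in AptCD4-LNT members were higher with Arg1, with a median log2 ratio of 1.11, and 12 of 20 in Untreated members, with a median of 0.80. Hilpda was at 751 CPM with Arg1 and 177 CPM without it in AptCD4-LNT members, and at 982 and 535 CPM in Untreated members. Egln3 was 9.63-fold and 5.21-fold higher with Arg1, and its AptCD4-LNT fold rests on few UMIs. Of the lipid and lysosome genes, 12 of 17 were higher with Arg1 in AptCD4-LNT members and 10 of 20 in Untreated members, with Ctsl, a lysosomal cathepsin gene, 5.09-fold and 2.04-fold higher. Mmp9, a gelatinase gene, was 4.79-fold higher with Arg1 in Untreated members.

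Members without Arg1 held more of the MHC class II transcripts. MHC class II genes were lower with Arg1 in 6 of 8 cases in AptCD4-LNT members (median -0.74) and 5 of 8 in Untreated members (-0.83). H2-Eb1 was at 958 CPM with Arg1 and 2140 CPM without it in AptCD4-LNT members, and at 1361 and 2632 CPM in Untreated members. Cxcl9 was at 71.3 CPM with Arg1 and 272 CPM without it in AptCD4-LNT members, and at 111 and 372 CPM in Untreated members. Cell cycle genes were lower with Arg1 in 9 of 11 cases in AptCD4-LNT members and in 1 of 12 cases in Untreated members. Of all genes, 16.6% were lower with Arg1 in AptCD4-LNT members and 14.2% in Untreated members. The median depth was 6575 UMIs with Arg1 and 8343 UMIs without it in AptCD4-LNT, and 4299 and 3694 UMIs in Untreated. Fibroblast markers summed to 341 CPM with Arg1 and 1430 CPM without it in AptCD4-LNT members, and to 976 and 281 CPM in Untreated members, and their part in these differences was not tested.

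Set against Untreated members, AptCD4-LNT members had higher Dusp2, Nfkbiz and Tnf transcripts and lower Mmp12, Inhba and Cxcl3. Of 11040 genes measured in members, 30.8% differed by at least 1.5-fold (18.5% higher and 12.3% lower in AptCD4-LNT), and of 11009 genes in the other macrophages 20.9% did (14.3% higher and 6.63% lower). Genes of few UMIs carry wide counting error, and of the 7148 genes with 100 or more UMIs, 20.8% differed between the members. This count of 2039 higher and 1361 lower genes in members leans on the scaling, since the median gene with 100 or more UMIs was shifted by 0.13 on the log2 scale. Centred on it, 1449 genes were higher and 1718 lower, so that 45.8% in place of 60.0% of the genes past 1.5-fold were higher in AptCD4-LNT. The smaller number of AptCD4-LNT members, with 979066 UMIs against 7554197 in Untreated members, stands behind these ratios, and with 1 library a group the treatment and the library cannot be told apart.

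The genes furthest below the Untreated level included Bglap2, Csf2ra, Inhba, Mgl2, Mmp12, Adamdec1, Cxcl3, Ppbp, Socs2, Ccl24, Pdcd1lg2 and Tagln. Mmp12 was at 108 CPM in AptCD4-LNT members and 1913 CPM in Untreated members (log2 ratio -4.14, -4.43 to -3.87). Members without Arg1 were 53 of 125 in AptCD4-LNT and 121 of 1539 in Untreated, so the groups differ in make-up. Among members with at least 3 Arg1 UMIs, Mmp12 was at 242 CPM in AptCD4-LNT and 2176 CPM in Untreated. Without Arg1 it was at 22.7 and 879 CPM. Inhba, the activin A subunit gene, was at 7.15 CPM in AptCD4-LNT members and 186 CPM in Untreated members, and Cxcl3, a neutrophil attractant gene, at 16.3 and 282 CPM. Pdcd1lg2, which encodes the PD-1 ligand PD-L2, was at 5.11 and 69.8 CPM, and its relative Cd274 at 62.3 and 166 CPM. Ccl24, an eosinophil attractant gene, was at 17.4 and 261 CPM. The other macrophages were lower in AptCD4-LNT too, by 43.0-fold for Mmp12, 6.65-fold for Inhba, 34.4-fold for Cxcl3, 19.1-fold for Pdcd1lg2 and 4.18-fold for Ccl24. These folds cover pools of unlike make-up. In cells with both gene groups, Mmp12 was at 80.0 CPM in AptCD4-LNT and 1611 CPM in Untreated. With neither gene group it was at 15.9 and 359 CPM, and with resident-type genes only at 0.899 and 68.1 CPM. The part of the make-up in these folds was not tested. Ppbp, the platelet chemokine gene, gave 0 against 383 UMIs, which is at least 16.5-fold lower in AptCD4-LNT members.

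Csf2ra (ENSMUSG00000059326), which encodes the ligand-binding chain of the receptor for GM-CSF, gave no UMI in AptCD4-LNT members and 933 UMIs (124 CPM, in 37.9% of cells) in Untreated members, at least 40.3-fold lower. It also gave no UMI among all 98968100 UMIs of the AptCD4-LNT library and 3020 UMIs in the Untreated library. Of 9336 genes with at least 1000 UMIs in the Untreated library, it was the only one at 0 in the AptCD4-LNT library. Neutrophils, which carry this receptor, were at 0 in AptCD4-LNT and 117 CPM in Untreated, so the 0 was shared by the whole library. Both matrices list the same 55357 genes, Csf2ra among them, and both groups are BALB/c mice by their labels. Why a whole library holds none was not tested, so the fold describes the libraries and is not a measure of the members alone. The signalling chain gene Csf2rb was at 248 CPM in AptCD4-LNT members and 278 CPM in Untreated members, and the GM-CSF gene Csf2 was at 21.3 CPM in the AptCD4-LNT library and 6.80 CPM in the Untreated library.

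The osteocalcin gene Bglap and its copies Bglap2 and Bglap3 were nearly absent from AptCD4-LNT members. Bglap was at least 120-fold lower in AptCD4-LNT members, Bglap2 gave 1 UMI against 1908 (1.02 and 253 CPM, log2 ratio -7.95, -13.25 to -5.47), and Bglap3 gave 0 against 204 UMIs. The whole AptCD4-LNT library held 1 Bglap, 6 Bglap2 and 3 Bglap3 UMIs, against 4488, 3061 and 323 in the Untreated library. Transcripts of Bglap2 and Bglap share 434 of 439 aligned bases (98.9%), and those of Bglap3 and Bglap 423 of 439 (96.4%), so how reads were divided among the copies is uncertain. As a description, since Bglap is a gene of the rule, it was at 369 CPM in members and 170 CPM in other macrophages of the Untreated library and gave no UMI in the 169 macrophages with resident-type genes only, which allows a share of up to 1.78%. Of other bone genes, Alpl and Sp7 gave no UMI in members of either library, and Runx2, the osteoblast regulator gene, was at 19.4 CPM in AptCD4-LNT and 27.4 CPM in Untreated members. Spp1 was at 3816 CPM in AptCD4-LNT members and 9488 CPM in Untreated members. Epithelial cells held more of it, at 13328 CPM in AptCD4-LNT and 14331 CPM in Untreated, and T cells 865 and 1933 CPM, with a UMI in 86.1% and 84.7% of T cells. The part of free Spp1 RNA in the member levels was not tested.

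The genes furthest above the Untreated level were Dusp2, Clec4a1, Rarres2, Ighm, Pltp, Nfkbiz, Saa3, H1f5, Ms4a7, Tnf, Nfkbid and Ch25h. Dusp2, an immediate phosphatase gene of MAP kinases, was at 218 CPM in AptCD4-LNT members and 23.2 CPM in Untreated members (log2 ratio 3.23, 2.94 to 3.53), and 2.45-fold higher in the other macrophages. Nfkbiz, an atypical IkB gene, was at 565 and 95.2 CPM in AptCD4-LNT and Untreated members, and 2.28-fold higher in the other macrophages. Tnf was at 124 and 27.9 CPM in AptCD4-LNT and Untreated members, and 1.42-fold higher in the other macrophages. Ms4a7, a macrophage membrane gene, was at 613 and 129 CPM in AptCD4-LNT and Untreated members. Pltp, a lipid transfer gene, was at 102 and 15.5 CPM in AptCD4-LNT and Untreated members but 1.11-fold lower in the other macrophages, and Saa3, an acute-phase gene, was 5.26-fold higher in members but 1.75-fold lower there. The ratios of Ighm and H1f5 turned below 0 under 1 alternative each.

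**Figure D5:**
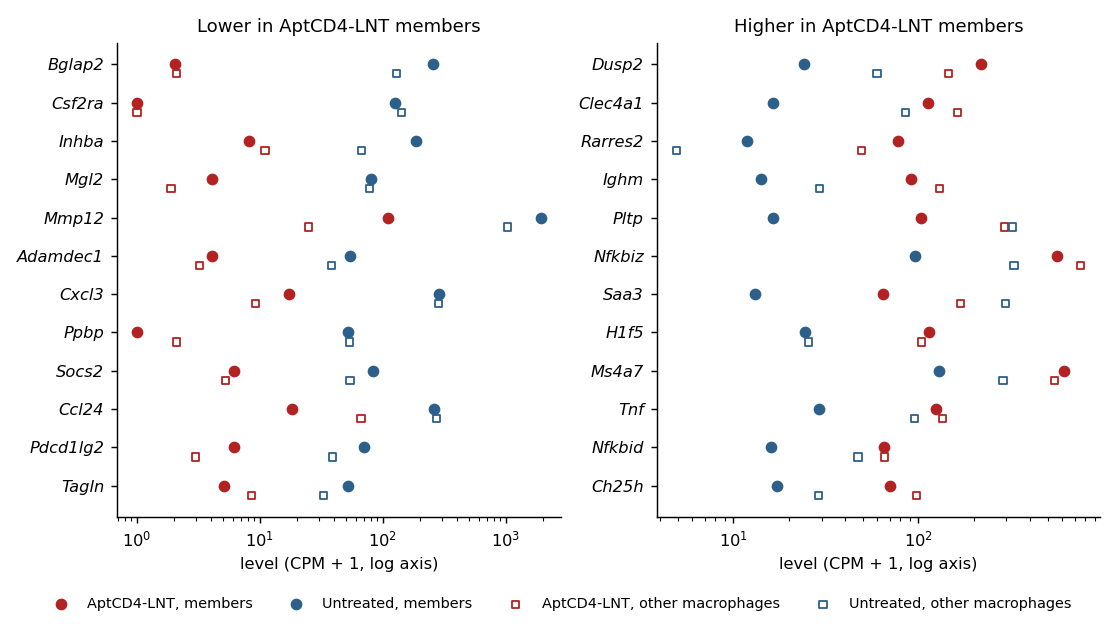
Level of the named genes (x axis, CPM + 1 on a log axis) in AptCD4-LNT and Untreated members, for the genes furthest above and furthest below the Untreated level, with filled points for members and open squares for the other macrophages. Dusp2 stands at 218 against 23.2 CPM and Mmp12 at 108 against 1913 CPM.

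By group, 9 of 20 hypoxia and glycolysis genes were lower in AptCD4-LNT members and 0 higher, with a median log2 ratio of -0.53 beside 0.14 over all genes. Hilpda was at 405 CPM in AptCD4-LNT members and 901 CPM in Untreated members, and Slc2a1 at 147 and 298 CPM, and Vegfa was at 298 and 290 CPM. Among members with at least 3 Arg1 UMIs, 1 of the 20 genes was lower and 1 higher, with a median of -0.10. In that comparison 38.6% of all genes differed (20.8% higher and 17.8% lower). These cells had a median depth of 6575 UMIs in AptCD4-LNT and 4299 UMIs in Untreated, so the minimum was not the same bar in both. The part of Arg1 content in the difference was not tested. Arginine genes other than Arg1 were lower in 4 of 14 cases, namely Nos2, Ass1, Slc7a2 and Arg2, and higher in none. Over all genes in members, 12.3% were lower and 18.5% higher in AptCD4-LNT. The matrix genes split, with 5 of 15 lower, among them Mmp9 at 21.4 and 202 CPM and Mmp13 at 19.4 and 199 CPM in AptCD4-LNT and Untreated members, and 2 higher, Serpinb2 and Ctsk. Of the C-type lectin genes beside Clec4n, 5 of 14 were higher, Clec4a3 being at 116 and 42.0 CPM, and Clec7a was lower, at 198 and 664 CPM, with a list median of 0.08.

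The remaining groups differed in direction. Among all genes, 18.5% were higher and 12.3% lower in AptCD4-LNT members, with a median log2 ratio of 0.14. Genes shared with Cx3cr1 and Cd72 macrophages were higher in 5 of 10 cases and lower in none, with Cx3cr1, the fractalkine receptor gene, at 340 CPM in AptCD4-LNT members and 165 CPM in Untreated members and Cd72 at 408 and 140 CPM. In the other macrophages 4 of the 10 were higher. Cell cycle genes were higher in 5 of 12 cases and lower in none, with Top2a at 181 and 92.0 CPM, but after thinning each cell before the rule was applied 10 of 12 were lower, beside 18.9% of all genes (37.6% either way), so no direction is given. Immediate early genes were higher in 8 of 15 cases and lower in 1, with Jun at 379 CPM in AptCD4-LNT members and 168 CPM in Untreated members and Nr4a1 at 452 and 168 CPM. Inflammatory genes were split, higher in 7 of 15 cases and lower in 3 with a median log2 ratio of 0.04, with Nfkbia at 1084 and 476 CPM higher and Il1a at 83.8 and 307 CPM lower. Recruited monocyte genes were also split, higher in 4 of 13 cases and lower in 3 (median 0.13), with Ccr2 at 212 and 92.8 CPM. MHC class II genes were higher in 1 of 8 cases and lower in 1, and MHC class I genes in 0 of 9. The interferon list was lower in 6 of 16 cases and higher in 1, with Iigp1 at 76.6 and 165 CPM. Neutrophil, epithelial, fibroblast and osteoclast markers were lower in AptCD4-LNT members in 4 of 7, 5 of 7, 6 of 10 and 4 of 7 cases, the osteoclast markers summing to 246 CPM in AptCD4-LNT members and 511 CPM in Untreated members, and their part in these differences was not tested.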

How the data were processed

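Single-cell RNA of 4T1 tumours was measured in 1 AptCD4-LNT and 1 Untreated library. The deposited matrices hold UMI counts per gene and barcode, made with Cell Ranger 7.2.0 on GRCm39, as the file headers and the processing notes of the submitters say. They were used without normalisation by the authors, and held 55357 genes and no barcode under 500 UMIs.

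Barcodes under 200 genes or over 20% mitochondrial UMIs were dropped, leaving 8853 in AptCD4-LNT and 20001 in Untreated. Doublets were not removed; Scrublet at its automatic threshold, with 0.8% expected per 1000 barcodes, was an alternative and called 220 AptCD4-LNT cells (2.49%) and 1665 Untreated cells (8.32%), among them 1 and 35 members. UMIs were summed over a group's cells and given as CPM, with exact binomial and Poisson 95% intervals that cover counting error only. Each group is 1 library, so no test was run. Genes with at least 20 UMIs over both sides were compared, and 1.5-fold either way was counted as a difference. A ratio against 0 UMIs is a bound computed with 3 counts in the group at 0. Thinning drew 3000 UMIs per cell.

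Named are the genes of the rule, list members, the 12 genes furthest each way with at least 30 UMIs and 50 CPM on the higher side, and 5 genes that climbed with member-gene content. The members and lists were chosen with earlier results of these data known. Alternatives were stricter cell filters, doublet removal, other member rules, thinning, equal weight per cell, centring and other UMI filters. Added after seeing the data were the comparison with macrophages of neither gene group, members with 3 Arg1 UMIs and removal of shared barcodes. Python 3.11.15, numpy 2.4.6, scipy 1.17.1, pandas 2.3.3, scanpy 1.11.5 and matplotlib 3.10.9 were used, and the steps were checked on simulated data.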

Additional observations from a re-analysis of the deposited data

Results flagged for a closer look

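Postn, which encodes the matrix protein periostin and is a fibroblast marker, differed in opposite directions in the 2 libraries. It was at 17.4 CPM in members and 66.8 CPM in other macrophages of the AptCD4-LNT library, a log2 ratio of -1.94. In the Untreated library it was at 79.6 CPM in members and 51.7 CPM in other macrophages, a log2 ratio of 0.62. The difference between the libraries was not tested.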

How the results depend on the processing

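The lower member share in AptCD4-LNT held its direction under each alternative run. Its log2 ratio was -2.39 of macrophages and -2.45 of all cells, -3.17 and -3.23 with at least 5 member-gene UMIs, and -2.79 and -2.83 after thinning. Genes past 1.5-fold between members and other macrophages numbered 2232 in AptCD4-LNT and 2017 in Untreated, 3518 and 3180 with every cell weighted equally, 673 and 790 at 100 UMIs or more, and 9267 and 8961 without a UMI filter. They numbered 3593 in AptCD4-LNT for members with 3 Arg1 UMIs, and 3496 in Untreated against macrophages of neither gene group. Between AptCD4-LNT and Untreated members they numbered 3400, 1485 at 100 UMIs or more, and 11269 without a filter. The UMI filters change how many genes are counted; for the other changes the cause was not tested.

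Signs turned in 13 values of named genes and of list medians past 1.5-fold, and the cause was not tested. Between members and other macrophages in AptCD4-LNT these were Prdx6 (-0.0026 with Krt8 and Krt18 at 0), Il1a (-0.043) and Malt1 (-0.025) after thinning, and Fcna (0.071) and F13a1 (0.68) against neither gene group. In Untreated the endothelial markers' median turned to 0.59 without Scrublet doublets, 0.15 with resident genes at 0 and 0.41 against neither gene group. Between AptCD4-LNT and Untreated members, the fibroblast markers' median turned to 0.91 with resident genes at 0, the neutrophil markers' to 0.57 and H1f5 to -0.67 after thinning, the osteoclast markers' to 0.12 with equal weights, and Ighm to -0.18 in members with 3 Arg1 UMIs. With list medians under 1.5-fold counted too, 99 of 1047 had the other sign under an alternative, among them the cell cycle genes between AptCD4-LNT and Untreated members (0.58, and -1.74 after thinning).

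No paired analysis was possible because each group is 1 library, and no replicate was left out for the same reason. Precision was limited by the 125 AptCD4-LNT members.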
